A study of Mus musculus with 40 samples.

Results

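The genes for the subunits of mitochondrial complex I were examined in brown adipose tissue. They were chosen by symbol, as the protein-coding genes named Ndufa, Ndufb, Ndufc, Ndufs or Ndufv followed by a digit, and no measured value entered the choice. This gave 37 of 21938 protein-coding genes on the nuclear chromosomes. Ndufab1 and the assembly factors named Ndufaf fall outside this rule and were kept as lists for comparison. Chromatin immunoprecipitation with sequencing (ChIP-seq) had been carried out for 4 histone marks in 8 wild type C57BL/6N mice, and a list of peaks was used for each of the 32 libraries. All mice were 20 weeks old. Mice 1 and 2 were kept warm on a normal chow diet (NCD), mice 4 and 5 were on NCD and were exposed to 4 °C for 24 h, mice 7 and 8 were warm and on a high-fat diet (HFD), which started at 8 weeks of age and lasted 12 weeks, and mice 10 and 11 had received the same HFD and the same cold exposure. Each condition therefore had 2 mice. Each library carries 1 mouse number, although the methods of the study can also be read as tissue from a pair of animals in 1 experiment.

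Complex I takes electrons from NADH, passes them to ubiquinone and pumps protons across the inner mitochondrial membrane. Its core subunits carry the flavin, the iron-sulphur clusters and the quinone site, or form the membrane channels, and are flanked by many accessory subunits. In brown adipose tissue the proton gradient is dissipated by UCP1 and released as heat. H3K4me3 marks the starts of active genes, H3K27ac marks active promoters and enhancers, H3K4me1 is typical of enhancers, and H3K27me3 is the mark of Polycomb repression.

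The genes were spread over 15 chromosomes, and 14 of the 37 (37.8%) had the start site of another protein-coding gene within 1000 bp of one of their own, against 12.3% of all protein-coding genes. All 14 had such a neighbour on the opposite strand. Whether the genes of a pair point away from each other was not examined. The pairs included Ndufs1 with Eef1b2 at 3 bp, Ndufb11 with Rbm10 at 3 bp, Ndufa7 with Rps28 at 10 bp, Ndufs6 with Mrpl36 at 29 bp and Ndufs3 with Kbtbd4 at 84 bp. A peak at such a promoter cannot be assigned to one gene of the pair. H3K4me3 at the 14 paired genes had a median percentile of 92.4 and a median width of 2222 bp, and at the other 23 the values were 92.3 and 1720 bp. The percentile gives the place of the highest peak at a gene among all peaks of its own list by fold enrichment (100 is the highest), taken as the median over mice.

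Promoter sequence was available for 32 of the 37 genes in the RefSeq table for GRCm38.p6. The following stretches belong to the genes with the highest and lowest H3K4me3 percentile (Ndufa9 and Ndufs8) and the widest and narrowest H3K4me3 peaks (Ndufa6 and Ndufc1) among those with at least 100 bases free of annotated exons. By median H3K27ac percentile, Ndufa6 and Ndufc1 were the highest of these, both at 98.7. They lie upstream of the start, within 250 bases of it, and are given 5′ to 3′ on the strand of the gene. All 4 genes are on the minus strand, at chr6:126849145-126849394, chr19:3912775-3913024, chr15:82354323-82354541 and chr3:51408989-51409205. Capitals mark matches to the motifs searched.
Ndufa9: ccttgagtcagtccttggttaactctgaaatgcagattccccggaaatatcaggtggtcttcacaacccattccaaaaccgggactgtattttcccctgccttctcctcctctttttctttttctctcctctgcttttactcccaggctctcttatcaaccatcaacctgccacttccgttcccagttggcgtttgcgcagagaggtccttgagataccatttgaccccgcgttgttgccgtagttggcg
Ndufs8: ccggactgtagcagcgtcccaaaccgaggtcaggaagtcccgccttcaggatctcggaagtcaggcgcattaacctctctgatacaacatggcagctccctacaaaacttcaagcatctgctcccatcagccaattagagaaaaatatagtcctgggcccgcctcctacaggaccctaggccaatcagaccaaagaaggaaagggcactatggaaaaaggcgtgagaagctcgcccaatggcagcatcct
Ndufa6: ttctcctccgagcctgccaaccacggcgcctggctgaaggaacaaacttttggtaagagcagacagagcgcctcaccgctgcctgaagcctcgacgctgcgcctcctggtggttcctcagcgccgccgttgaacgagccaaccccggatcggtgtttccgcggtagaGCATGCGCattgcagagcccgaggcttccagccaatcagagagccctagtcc
Ndufc1: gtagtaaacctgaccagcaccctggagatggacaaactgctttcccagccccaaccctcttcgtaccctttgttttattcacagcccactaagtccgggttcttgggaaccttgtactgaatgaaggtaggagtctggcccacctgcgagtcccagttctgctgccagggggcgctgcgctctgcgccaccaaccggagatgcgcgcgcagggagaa
The only match in these 4 stretches was an NRF1 motif in Ndufa6, on the opposite strand, 83 to 76 bases before the start. NRF1 is a factor known to act on genes of the respiratory chain.

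Motifs were searched on both strands in the 250 bases before the start of the 32 genes and of 16522 protein-coding genes. The NRF1 motif GCGCATGC was present in 3 of the 32 (9.38%; Ndufa6, Ndufa8 and Ndufa11) and in 3.15% of all promoters. The letters AAGGTCA, a site bound by oestrogen-related receptors, were present in Ndufb2, Ndufb4 and Ndufs5 (9.38%) and in 3.5% of all. CCGGAAG, the core of the GABPA site, was present in Ndufb6, Ndufb7 and Ndufs3 (9.38%) and in 9.53% of all. GGGCGG, an SP1 site, was present in 12 of the 32 (37.5%) and 44.4% of all, and TATAAA in 4 (12.5%) and 11.9%. AAGATGG, a YY1 motif, was present in 0 of the 32 and 4.09% of all. Among 34 promoters of complex II to V genes, the NRF1, oestrogen-related receptor and GABPA letters were found in 14.7%, 5.88% and 23.5%. Among 69 promoters of mitochondrial ribosomal protein genes they were found in 11.6%, 4.35% and 23.2%. The complex I shares rest on 3 genes each for the first 3 motifs and are descriptions of letters in a window. The GC content of the 32 promoters had a median of 57% (42 to 68%), against 56% for all. The ratio of observed to expected CpG was 0.719 (0.327 to 1.14) against 0.562. It was 0.759 for complex II to V and 0.769 for mitochondrial ribosomal protein genes.

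The lists held 13517 to 24104 H3K4me3 peaks, 3224 to 40604 H3K27ac peaks, 12 to 27568 H3K4me1 peaks and 20 to 6428 H3K27me3 peaks. The H3K27ac list of mouse 7 was the shortest of its mark, with the next at 14511 peaks, and H3K27ac counts are therefore given with and without it. Of 10 brown adipocyte markers, 9 had H3K4me3 in all 8 mice and 7 had H3K27ac in all 8, Ucp1, Cidea and Pparg among them. Of 4 endothelial markers, 3 had H3K4me3 in all 8 mice and 1 had H3K27ac in all 8. Of 5 macrophage markers, 3 had H3K4me3 in any mouse and 0 in all 8. Of 3 neuron markers, Syp had H3K4me3 in 7 mice, all but mouse 7, and H3K27ac in mice 4, 8 and 11. Neurod1 and Snap25 had neither mark in any mouse. The liver markers Alb, Apoa2 and Ttr had neither mark in any mouse. Of 6 skeletal muscle markers, 3 had H3K4me3 in each of the 4 NCD mice and 1 in each of the 4 HFD mice, since Acta1 and Pygm had a peak in every NCD mouse and in no HFD mouse. Mylpf had H3K4me3 in all 8 mice, and Ckm, Myh4 and Tnnt3 had it in none.

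H3K4me3 was present at 36 of the 37 genes in all 8 mice, whereas 43.3% of all protein-coding genes had the mark in all 8. The exception was Ndufa4l2, a paralog of Ndufa4 known as a hypoxia-induced gene. Its H3K4me3 peak was found in the cold NCD mice 4 and 5 only. With H3K4me3 lists of equal length (13000 peaks each), the gene had the mark in 0 mice. The whole lists of mice 4 and 5 held 22321 and 22692 peaks. Only that of mouse 11 was longer (24104), and it held no peak at Ndufa4l2. In mice 4 and 5 the peak was low, at the 22nd and 4.41th percentile of the lists. Its widths were 489 and 958 bp, at the 27.8th and 50.1th percentile of the lists by width. Ndufa4l2, which entered by its symbol, had no H3K27ac peak in any mouse. Among the 37 genes it was also the only one with H3K27me3, in mouse 5. Ndufa4, now regarded as a subunit of complex IV, had both active marks in all 8 mice, with median percentiles of 96.5 for H3K4me3 and 97.5 for H3K27ac.

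**Figure D1:**
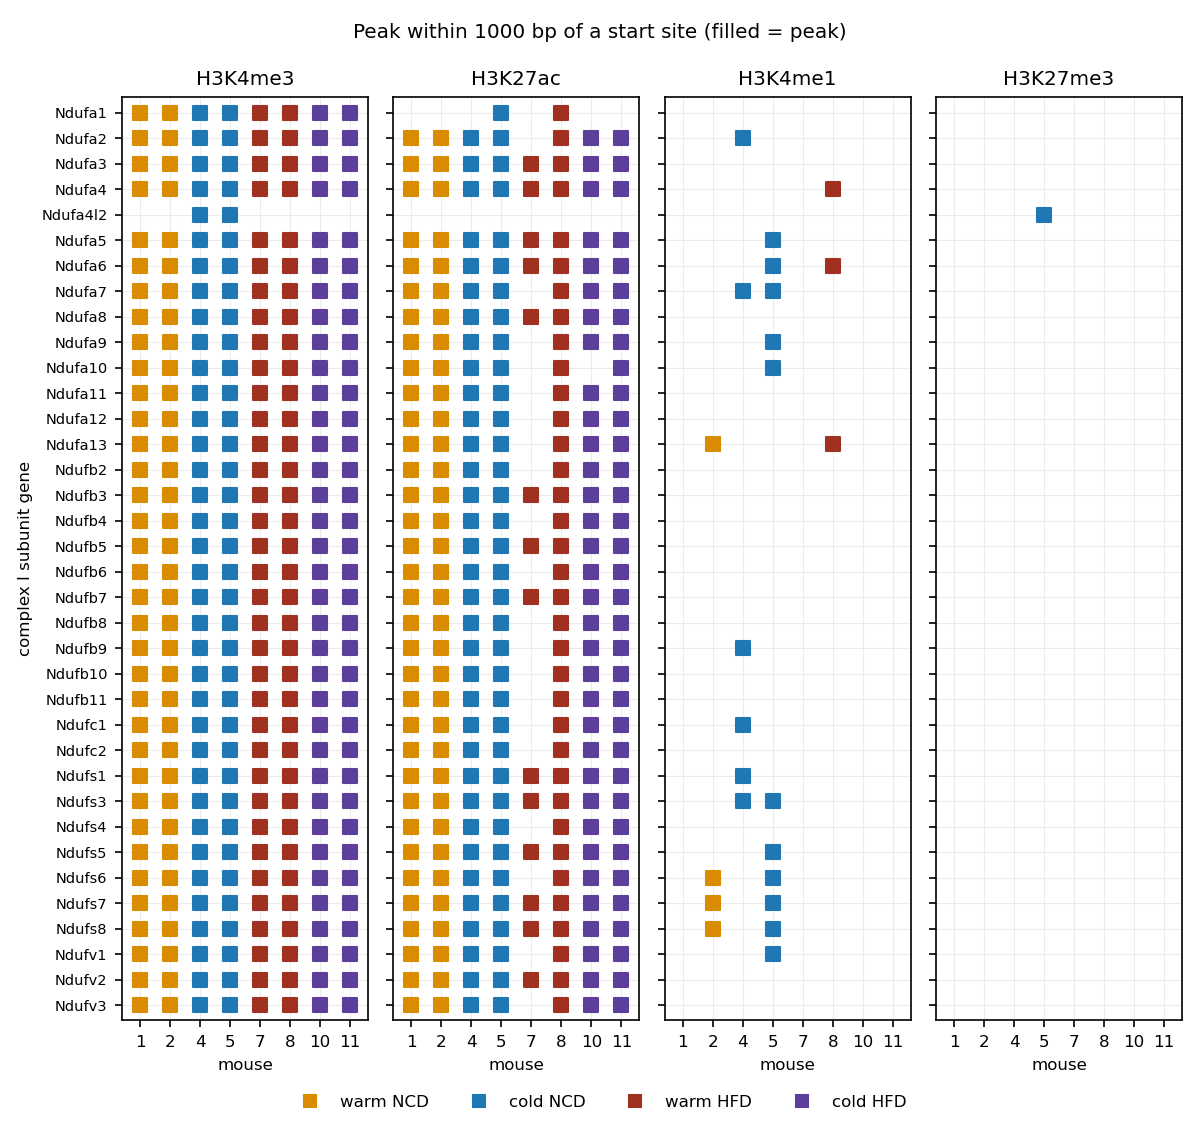
Each filled square is a peak of the mark named above the panel within 1000 bp of a start site of the gene in that row (36 of the 37 complex I subunit genes) in that mouse (8 columns, coloured by condition). H3K4me3 fills every row but that of Ndufa4l2, H3K27ac leaves most of its gaps in the column of mouse 7, and H3K4me1 and H3K27me3 are sparse.

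The H3K4me3 peaks of complex I genes were high and wide within their lists. The median percentile was 92.3, compared with 69.8 for all genes with a peak and 77.7 for the 9499 genes with a peak in all 8 mice. The median width was 1882 bp, compared with 1396 and 1606 bp. By width the complex I genes stood at the 85.1th percentile, compared with 68.1 and 76.4. Peaks covered the first kilobase downstream of the 5′ end most often. At 500 bp downstream, 95.9% of the pairs of gene and mouse were under an H3K4me3 peak, against 85.4% for the genes with H3K4me3 in all 8 mice, and at 1000 bp the shares were 76.7% and 48.8%. Upstream, at 1000 bp, they were 22% and 15.9%.

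**Figure D2:**
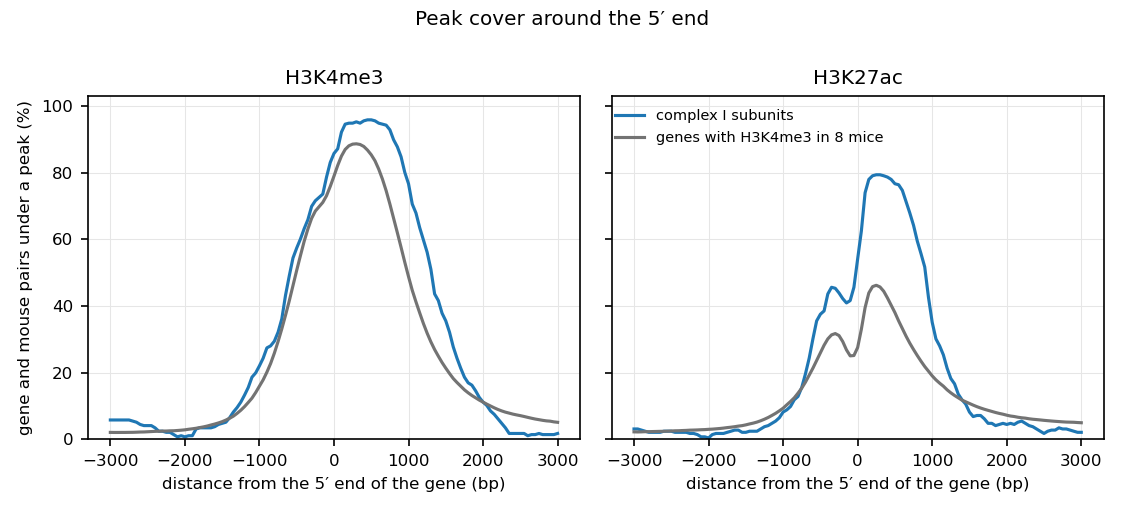
Share of gene and mouse pairs (y axis, %) in which the position at a given distance from the 5′ end (x axis, bp, downstream to the right) lay under a peak, for the 37 complex I subunit genes and for the 9499 genes with H3K4me3 in all 8 mice. The complex I curve exceeds the other most clearly downstream of the start, for H3K27ac by 79.4% against 45.7% at 300 bp.

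Among the 7 nuclear-encoded core subunits, the NADH-oxidising module (Ndufs1, Ndufv1, Ndufv2) had H3K4me3 percentiles of 85 to 98.7 and in the quinone module Ndufs3, Ndufs7 and Ndufs8 had 95.8, 96.9 and 78.3. The 28 accessory subunits, counted without Ndufa4 and Ndufa4l2, ranged from 60.2 to 98.8. Their medians of 91.9 for the core and 92.4 for the accessory subunits lay close together. The core peaks had a median width of 2172 bp and the accessory peaks of 1811 bp, with ranges of 1720 to 2656 bp and 1218 to 3092 bp that overlapped.

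Ndufs1, which carries iron-sulphur clusters of the NADH module, was among the highest by both marks. Its H3K4me3 percentile was 99.5, 86.2, 97.6, 98.1, 99.7, 99.8, 92.6 and 99.2 in mice 1, 2, 4, 5, 7, 8, 10 and 11, and its H3K27ac percentile was 85.7 in mouse 10 and between 98.8 and 100 in the other mice. The highest H3K4me3 medians belonged to Ndufs4 (98.8), Ndufs1 (98.7), Ndufa9 (98.2), Ndufs7 (96.9) and Ndufb6 (96.8). Ndufs4 and Ndufa9 are accessory subunits, the first needed to complete the NADH module and the second placed near the quinone site.

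The lowest H3K4me3 medians, after Ndufa4l2, belonged to Ndufa1 (60.2), Ndufb11 (77.2), Ndufs8 (78.3), Ndufa7 (82.7) and Ndufv1 (85). Ndufa1 and Ndufb11 are the 2 complex I genes on chromosome X. Ndufa1 ranged from 52.9 in mouse 2 to 77.7 in mouse 8, and Ndufb11 from 48.5 in mouse 7 to 97.9 in mouse 4. Genes on chromosome X had a median percentile of 56.7 and those on autosomes of 70.5. Both X-linked genes also have a neighbouring start on the opposite strand, and their peaks were not narrow, at 1928 bp for Ndufa1 and 2604 bp for Ndufb11.

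**Figure D3:**
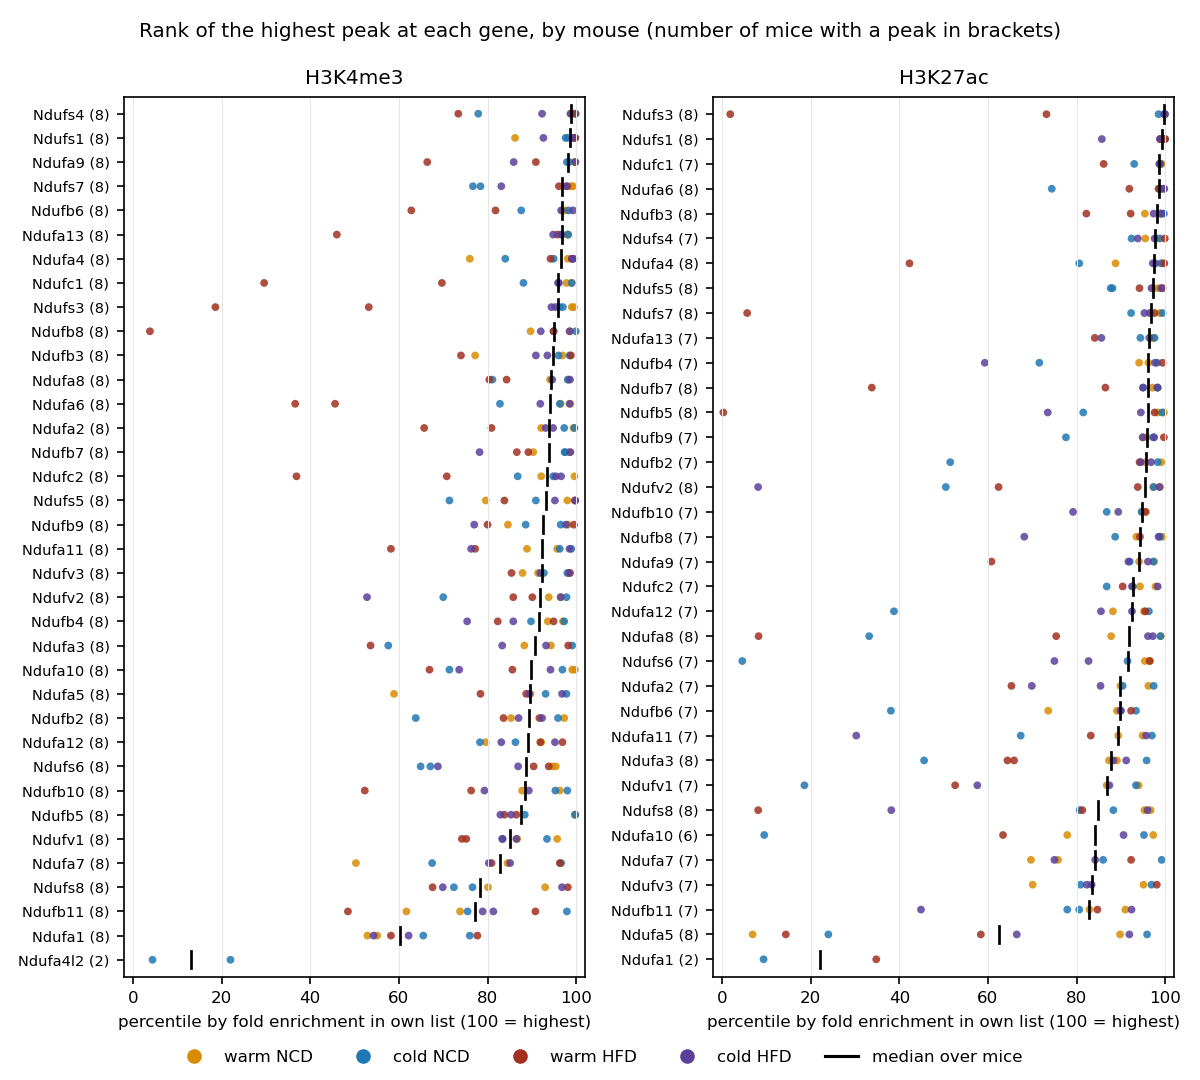
Percentile by fold enrichment (x axis, 100 is the highest peak of the list) of the highest peak at each of 36 genes (rows, where it has a peak, with the number of mice with a peak in brackets); points are mice, coloured by condition, and black lines are medians over mice. Most medians lie above 80 for both marks, Ndufa4l2 and Ndufa1 are the lowest, and several points far to the left belong to the warm HFD mice.

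The widest H3K4me3 peaks were at Ndufa6 (3092 bp), Ndufb5 (2992 bp), Ndufa13 (2723 bp), Ndufb3 (2716 bp) and Ndufb9 (2688 bp). Ndufb5, Ndufa13, Ndufb3 and Ndufb9 share their start regions with other genes. The narrowest, besides Ndufa4l2, were at Ndufc1 (1218 bp), Ndufa3 (1260 bp), Ndufb7 (1320 bp), Ndufv3 (1455 bp) and Ndufs4 (1473 bp). Ndufs4 had both the highest median percentile and one of the 5 narrowest peaks among genes with H3K4me3 in all 8 mice. In 21 of the 290 pairs of gene and mouse with H3K4me3 the gene had more than 1 peak, and 13 of these were in mouse 7.

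H3K27ac was present at 15 of the 37 genes in all 8 mice, against 3.74% of all protein-coding genes and 8.4% of the genes with H3K4me3 in all 8. It was present in 7 or more mice at 34 of the 37, against 17.1% and 37.2%. The difference between the 15 and the 34 lay in mouse 7, in which 19 genes alone lacked the mark. Mouse 7 held H3K27ac at 15 complex I genes and each of the other mice at 34 to 36. The genes outside the 34 were Ndufa10, without H3K27ac in the HFD mice 7 and 10, Ndufa1, with H3K27ac in mice 5 and 8 only, and Ndufa4l2.

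The median H3K27ac percentile of complex I genes was 94.5, compared with 64.3 for all genes with a peak, and the median width was 1098 bp, compared with 694 bp. By mouse, the median over complex I genes was 94.7, 97.3, 81.5, 97.3, 33.8, 92.3, 91.5 and 95.3 in mice 1, 2, 4, 5, 7, 8, 10 and 11. In mouse 7 it lay below the median of all genes with a peak in that list (45), and in the other 7 mice above it. When each H3K27ac list was shortened to its 3000 peaks of highest −log10 p, 13 to 33 complex I genes had a peak in each mouse. Of all protein-coding genes, 3.5 to 10.7% did. The median percentile of complex I genes was then 66.3. This is a place among the 3000 peaks kept, and it is not on the scale of the whole lists.

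The highest H3K27ac medians were at Ndufs3 (99.8), Ndufs1 (99.2), Ndufa6 (98.7), Ndufc1 (98.7) and Ndufb3 (98.2). Ndufs3 belongs to the quinone module, and Ndufb3 is an accessory subunit of the membrane arm. The lowest among genes with the mark were Ndufa1 (22.1) and Ndufa5 (62.5). Ndufa5 stood at 6.92 and 89.8 in warm NCD mice 1 and 2, at 24 and 95.9 in cold NCD mice 4 and 5, at 14.4 and 58.4 in warm HFD mice 7 and 8, and at 66.5 and 91.9 in cold HFD mice 10 and 11. The 2 mice of a condition lay far apart, and the conditions overlapped except for the warm and the cold HFD mice. The widest range among complex I genes was that of Ndufb5, from 0.31 in mouse 7.

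H3K4me1 was found near 18 of the 37 genes in any mouse, against 22.4% of all protein-coding genes and 40.7% of the genes with H3K4me3 in all 8 mice. It was found in 1 mouse at 11 genes and in 2 mice at 7 genes, and no complex I gene had it in more. The 7 were Ndufa6, Ndufa7, Ndufa13, Ndufs3, Ndufs6, Ndufs7 and Ndufs8. H3K4me1 peaks at complex I genes came from mice 2, 4, 5 and 8, whose H3K4me1 lists were the 4 longest. H3K27me3 was found at Ndufa4l2 in 1 mouse, against 6.89% of all protein-coding genes with the mark in any mouse.

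Other nuclear genes of mitochondrial proteins were compared by presence and percentile. The 49 genes of complexes II to V were taken by symbol alone (Sdha to Sdhd, Cyc1, and symbols beginning with Uqcr, Cox4 to Cox8 or Atp5). They had H3K4me3 in any mouse at 45 genes and in all 8 mice at 42. H3K27ac was found in 7 or more mice at 41, and the median percentiles were 88.3 and 96.9. H3K27ac in all 8 mice was found at 28 of the 49 (57.1%), more than the 40.5% of complex I genes, whereas in 7 or more mice the order was the reverse, at 83.7% and 91.9%. Their median widths were 2094 bp for H3K4me3 and 1459 bp for H3K27ac, both above those of complex I genes. The 78 mitochondrial ribosomal protein genes had H3K4me3 in all 8 mice at every gene and H3K27ac in 7 or more at 32 and in all 8 at 7, with 88.3 and 70.3. Of 16 complex I assembly factors, 15 had H3K4me3 in all 8 mice and 9 had H3K27ac in 7 or more and 2 in all 8, with 87 and 66.1. These differences between gene lists were not tested. Among the assembly factors, Ndufaf2 had H3K27ac in 1 mouse and Nubpl in none, and the 2 with it in all 8 were Foxred1 and Tmem186. Ndufab1, the mitochondrial acyl carrier protein that is also a complex I subunit, had both marks in all 8 mice at the percentiles of 84.9 and 97.2. Of 6 regulators of mitochondrial genes, Ppargc1a, Esrra and Gabpa had H3K27ac in all 8 mice, Nrf1 in 6, Yy1 in 5 and Tfam in 4.

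The design asks whether cold exposure or HFD changed these marks. No complex I gene had H3K4me3 in all 4 mice of a temperature or diet and in none of the other 4, against 0.146% of all protein-coding genes. The same held for H3K27ac, against 0.109%. As 36 of the 37 genes had H3K4me3 in all 8 mice, such a split could not occur at them. Nor could it at the 34 genes with H3K27ac in 7 or more mice. These counts therefore cannot answer the question. By diet, the median H3K4me3 percentile of complex I genes was 93.9, 96.4, 90.9 and 96 in NCD mice 1, 2, 4 and 5, and 83.7, 82.8, 91.9 and 93.3 in HFD mice 7, 8, 10 and 11. The lowest 2 of the 8 values were those of the warm HFD mice, and the ranges of the diets overlapped. By temperature, the mean of these medians was 89.2 ± 6.96 in warm and 93 ± 2.21 in cold mice (SD, n = 4 each). The median width percentile was 86.3, 83.6, 81.7 and 80.4 in the NCD mice and 90.1, 85.7, 87.8 and 87.5 in the HFD mice, with an overlap between mouse 1 and mouse 8. For all genes with a peak it was 69.9, 70.4, 70.4 and 70.2 in NCD and 64.5, 68.5, 67.3 and 73.3 in HFD mice.

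**Figure D4:**
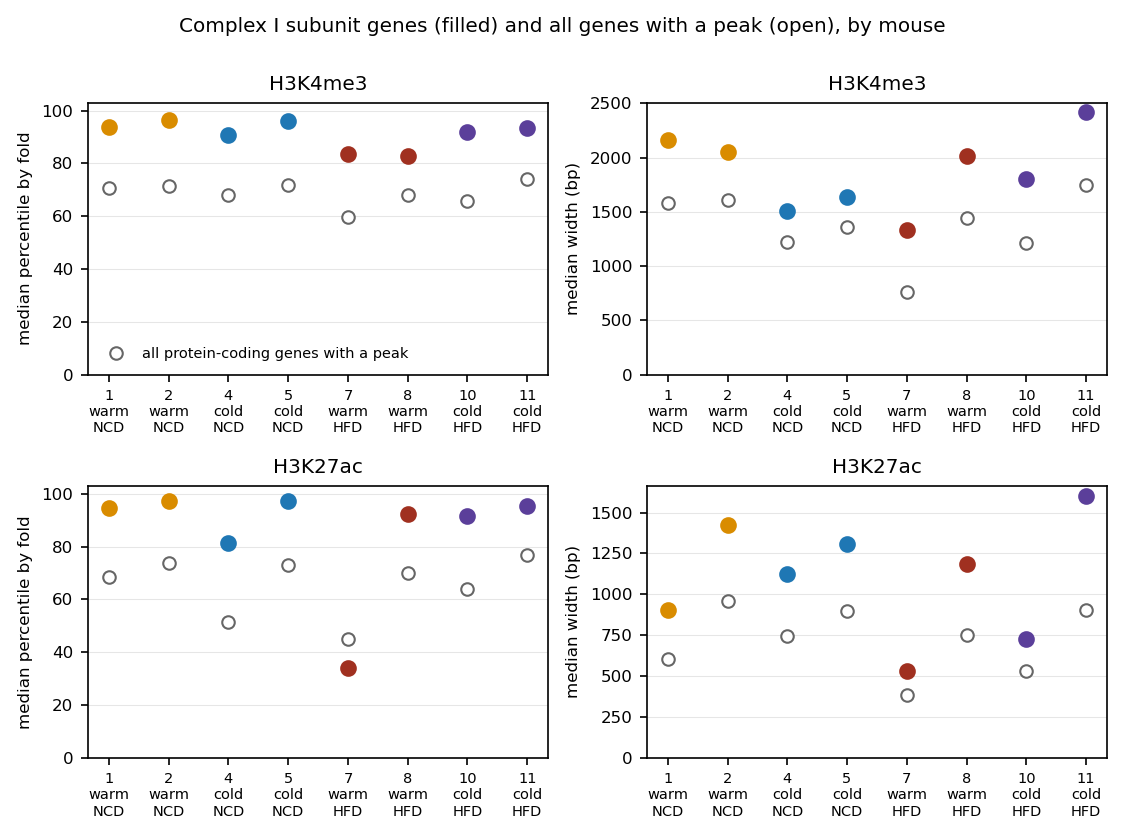
Median over the complex I subunit genes with a peak (filled, coloured by condition) and over all protein-coding genes with a peak (open) in each mouse, for the percentile by fold enrichment (left) and the peak width in bp (right). Complex I genes lie above all genes in every mouse for H3K4me3 and in every mouse but mouse 7 for the H3K27ac percentile.

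Differences were tested with limma across all genes with a peak in all 8 lists, on log2 values brought to 1 distribution by quantile normalization. This covered 9499 genes with 36 complex I genes for H3K4me3 and 821 genes with 15 complex I genes for H3K27ac. The latter are the genes with a peak in the short list of mouse 7. At an adjusted p under 0.05, 0 complex I genes were called in any of 12 comparisons. For fold enrichment limma called 0% of all genes in any comparison of either mark. For H3K4me3 width it called 0% for cold against warm, 0.274% for HFD against NCD and 0.0105% for the interaction, and for H3K27ac width 0.731%, 0% and 0%. The interaction is the cold effect on HFD minus the cold effect on NCD. At an unadjusted p under 0.05, limma counted 2, 2 and 5 of the 36 complex I genes for H3K4me3 fold enrichment, 3, 11 and 0 for H3K4me3 width, 1, 3 and 2 of the 15 for H3K27ac fold enrichment and 0, 0 and 0 for H3K27ac width, each for cold against warm, HFD against NCD and the interaction. In the same order, the share of all fitted genes with an unadjusted p under 0.05 was 5.61, 5.77 and 4.41% for H3K4me3 fold enrichment, 8.27, 17.9 and 5.6% for H3K4me3 width, 3.9, 7.92 and 7.92% for H3K27ac fold enrichment and 7.06, 7.06 and 1.46% for H3K27ac width. The 2 complex I genes in each of the temperature and diet comparisons of H3K4me3 fold enrichment were 5.56% of the 36, close to the share of all genes, and the 5 of its interaction were 13.9%.

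The largest share of unadjusted p under 0.05 was in H3K4me3 width by diet, with 30.6% of the complex I genes and 17.9% of all genes. There, after quantile normalization, 29 of the 36 estimates were higher in HFD and 7 lower. The median difference was 0.26 on the log2 scale for complex I genes, with a median SE of 0.19, and 0.03 for all genes. Before normalization, the median width of complex I genes averaged 1894 ± 452 bp in HFD and 1839 ± 317 bp in NCD mice (SD, n = 4 each). For all genes with a peak it averaged 1290 ± 416 bp in HFD and 1444 ± 184 bp in NCD mice. The estimates thus describe width relative to the other fitted genes. The smallest adjusted p by limma were 0.106 for Ndufa13 (−0.90 ± 0.22, log2 difference of HFD and NCD ± SE), 0.121 for Ndufs5 (0.61 ± 0.17) and 0.162 for Ndufs8 (−0.57 ± 0.18). Of 6 muscle markers, Acta1 and Pygm had H3K4me3 in NCD mice only, Mylpf in all 8 mice, and Ckm, Myh4 and Tnnt3 in none. The part of muscle in a difference between diets was not tested.

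Ndufa13, an accessory subunit also known as GRIM-19, had H3K4me3 peaks of 3146, 3304, 2627 and 2819 bp in NCD mice 1, 2, 4 and 5, and of 815, 1167, 1174 and 3437 bp in HFD mice 7, 8, 10 and 11. The peak was thus shorter in 3 HFD mice and the longest of all in the fourth. In mice 8 and 10 the region was split into 3 and 2 peaks. The start region of Ndufa13 also holds the starts of Tssk6 and Yjefn3. The summit of the highest H3K4me3 peak lay a median of 1098 bp downstream of the Ndufa13 start, beyond the window of 1000 bp. For H3K27ac the median was 1048 bp. Ndufs8 had 2340, 2400, 2572 and 2665 bp in the NCD mice and 793, 1136, 1993 and 2579 bp in the HFD mice, with 2 peaks in mice 7 and 8. Ndufs5 went the other way after normalization, and its widths before it were 1603, 1490, 1132 and 1314 bp in NCD and 1507, 2148, 1404 and 2329 bp in HFD mice, which overlapped.

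The width comparison of the diets depended on mouse 8. Without it, limma called 2072 genes (21.8% of 9500) and 13 of the 36 complex I genes, 12 higher and 1 lower in HFD, with mouse 7 alone standing for warm HFD and assumed to vary like the other groups. The 13 were Ndufa3, Ndufa5, Ndufa7, Ndufa8, Ndufa12, Ndufa13, Ndufb9, Ndufs1, Ndufs3, Ndufs4, Ndufs5, Ndufs6 and Ndufv2. Without mouse 7 it called 102 genes of 11767 and 0 complex I genes. Without mouse 8, cold against warm called 5.2% of genes for H3K4me3 width, including Ndufv2 (−0.77 ± 0.15, adjusted p = 0.0298 by limma, 0.0298 to 0.998 over the alternatives).

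**Figure D5:**
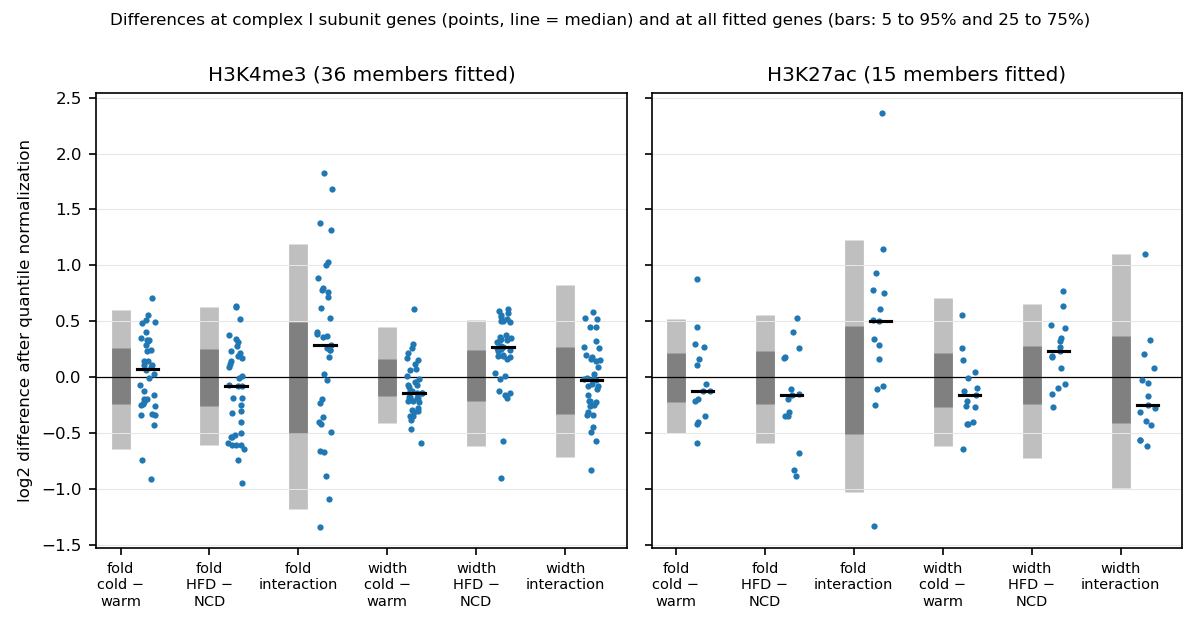
Log2 differences estimated by limma after quantile normalization (y axis), in fold enrichment and width of H3K4me3 (left) and H3K27ac (right). Points are complex I subunit genes and short lines their medians. Bars give the range from 5 to 95% (light) and 25 to 75% (dark) of all fitted genes. The points of H3K4me3 width for HFD minus NCD lie mostly above 0, with Ndufa13 and Ndufs8 at −0.90 and −0.57, and Ndufs3 stands at 2.36 in the H3K27ac interaction.

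Ndufs3 had the smallest unadjusted p of all complex I genes, in the H3K27ac interaction (2.36 ± 0.57, adjusted p = 0.112 by limma, and 0.0373 to 0.97 over the alternatives). Its H3K27ac percentile was 99.9, 99.9, 98.5 and 99.9 in NCD mice 1, 2, 4 and 5, 1.86 and 73.2 in warm HFD mice 7 and 8, and 99.9 and 99.8 in cold HFD mice 10 and 11. Its H3K4me3 percentile was 99.5, 99, 96.2 and 97 in the NCD mice, 18.6 and 53.2 in mice 7 and 8, and 94.4 and 95.3 in mice 10 and 11. For both marks the warm HFD mice were the lowest and did not overlap with the other 6, and they also differed widely from each other. The H3K4me3 differences of Ndufs3 were −0.95 ± 0.28 for HFD against NCD and 1.68 ± 0.57 for the interaction, with adjusted p of 0.726 and 0.916 by limma. The width of the H3K4me3 peak at Ndufs3 showed no such pattern, at 1913 and 2238 bp in mice 7 and 8 and 1619 to 2470 bp in the others. The adjusted p of the H3K27ac interaction was 0.0373 without mouse 8, where limma called 1.34% of 821 genes and no other complex I gene. The start of Ndufs3 lies 84 bp from that of Kbtbd4, and the promoter was counted once for each gene.

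Ndufa6, an accessory subunit of the LYR family, had a like order in H3K4me3, with percentiles of 98.7, 96.5, 82.8 and 96.3 in the NCD mice, 36.6 and 45.6 in the warm HFD mice and 91.9 and 98.5 in the cold HFD mice. The interaction estimate of Ndufa6 was 1.83 ± 0.62 (adjusted p = 0.916 by limma). Its H3K27ac percentile did not follow, with 91.9 and 98.5 in mice 7 and 8 and 74.4 to 99.8 in the others. Ndufc2, a small membrane-arm subunit, had the third-ranked p of this comparison, with an estimate of 1.38 ± 0.61.

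For cold against warm, the leading estimates in H3K4me3 fold enrichment were Ndufs6 (−0.91 ± 0.31) and Ndufs7 (−0.74 ± 0.30), both with an adjusted p of 0.876 by limma. The H3K4me3 percentile of Ndufs6 was 94.6, 95.4, 90.4 and 93.8 in warm mice 1, 2, 7 and 8, and 67.1, 64.9, 86.9 and 68.8 in cold mice 4, 5, 10 and 11. All cold values lay below all warm ones, and the gap between 86.9 and 90.4 was small beside the spread within the cold mice. Ndufs7 had 99.3, 98.9, 98 and 96.1 in warm mice and 78.4, 76.7, 83.1 and 97.7 in cold mice, which overlapped. In width, Ndufs8 (0.61 ± 0.18), Ndufv2 (−0.59 ± 0.19) and Ndufs4 (−0.46 ± 0.19) led for H3K4me3, with adjusted p of 0.395, 0.445 and 0.539 by limma. As the tissue was profiled in bulk, a change in the share of a cell type and a change within cells cannot be told apart in any of these values.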

How the data were processed

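H3K4me3, H3K27ac, H3K4me1 and H3K27me3 ChIP-seq peak lists from brown adipose tissue of 8 mice were used, 1 for each of 32 libraries. The 8 inputs entered only through these lists. As the study's methods describe, the authors trimmed reads with cutadapt, aligned them to GRCm38 with bowtie2 and called peaks with macs2 against the matching input. Tool versions and the cutoff for calling were not stated in the sources used here. The deposited fold enrichment is a ratio of pileup to local background, and the deposited −log10 p and −log10 q values come from the peak caller, the smallest −log10 q being 1.3. Read depth is unknown from the lists, and the number of peaks is given in its place.

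Genes and start sites were from GENCODE M21 basic (GRCm38). A peak belonged to a gene when a base lay within 1000 bp of any of its start sites. For each gene the highest peak gave the percentile and fold enrichment, and the widest gave the width. limma 3.58.1 (R 4.3.3) was fitted to log2 values of all genes with a peak in all 8 lists, quantile-normalized, with the 4 conditions as cell means, and p-values were adjusted by the Benjamini-Hochberg method over all these genes. The fit was tested on simulated data. The other tables were made with Python 3.11.15 and pandas 2.3.3. Promoter sequences were those of RefSeq. Alternatives were summits within 1000 bp, windows of 500 and 2000 bp, −log10 q of at least 5, lists of equal length (13000 and 3000 peaks), ranking by −log10 p, other scalings, an additive model and leaving out each mouse.

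Genes named with values were drawn from those with H3K4me3 in fewer than 8 mice and those with a peak split by temperature or diet. Others came from the 5 highest and lowest by H3K4me3 percentile, H3K4me3 width and H3K27ac, the 7 core subunits, and Ndufa4 with Ndufa4l2. The 3 smallest p of each comparison were also a source, but for several comparisons not all of them, or none, are given. 1 member enters all counts and medians and is not reported singly here. The motifs and the printed promoters were chosen after the lists had been seen. The members, lists and tests were chosen with earlier results of these data known. The study states no test for these libraries.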

Additional observations from a re-analysis of the deposited data

Results flagged for a closer look

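Values of complex I genes were compared within groups of 4 or 8 mice by Dixon's gap, the distance of the extreme mouse from the nearest other mouse over the whole range. Of 138 groups of values, 32 held a mouse beyond the 95% limit, where chance gives about 1 in 20 for independent groups of continuous values. These groups overlap, since a mouse is counted in all 8, by temperature and by diet, some hold tied counts in which a difference of 1 gene suffices, and percentiles end at 100, so the number of groups cannot be read against that share.

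Mouse 7 accounted for most of them. Its H3K27ac list held a peak at 15 complex I genes with a median percentile of 33.8, the lowest of all 8, of the 4 warm and of the 4 HFD mice. It was also the lowest in H3K27ac percentile at Ndufa4 (42.3), Ndufb3 (82.2), Ndufb5 (0.31), Ndufb7 (33.8), Ndufs3 (1.86) and Ndufs7 (5.68), in H3K27ac width at Ndufa8 (289 bp), in H3K4me3 percentile at Ndufb8 (3.83), Ndufc1 (29.6) and Ndufc2 (36.9), and in H3K4me3 width at Ndufa1 (581 bp) and Ndufa10 (849 bp).

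Mouse 8 was the lowest in H3K4me3 percentile at Ndufa13 (46) and Ndufa9 (66.4), and was the only HFD mouse with H3K4me1 at complex I genes (4). Mouse 4 was the lowest in H3K4me3 percentile at Ndufb2 (63.8) and in H3K27ac percentile at Ndufa6 (74.4), and its median H3K27ac percentile of 81.5 was the lowest of the NCD mice. Mouse 10 was the lowest in H3K27ac percentile at Ndufs1 (85.7). H3K27ac was widest at Ndufa3 (2588 bp) and Ndufb7 (1816 bp) in mouse 11 and at Ndufs8 (2024 bp) in mouse 2. Mouse 5 held H3K27ac at 36 complex I genes, the most of the NCD mice by 1 gene, and was the only mouse of all 8, of the cold and of the NCD mice with H3K27me3 at 1 gene.

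Peaks on the mitochondrial genome were outside the comparisons. They covered complex I genes encoded there in all 4 HFD lists of each mark, and in 0 of 4 NCD lists for H3K4me3 and H3K27me3, 1 of 4 for H3K27ac and 2 of 4 for H3K4me1.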

How the results depend on the processing

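The presence of H3K4me3 at complex I genes, its percentile and its width stayed close to the reported values under every alternative run for them. They were 35 or 36 genes with the mark in all mice used, 88.5 to 95 and 1796 to 1906 bp. The H3K4me3 peaks of Ndufa4l2 in mice 4 and 5 were absent with lists of equal length. H3K27ac in all 8 mice was found at 5 genes with −log10 q of at least 5 and at 9 with lists of equal length. With 1 mouse left out it was found at 15 to 34, the 34 without mouse 7. Its percentile was 66.3 with lists of equal length. In that setting and with −log10 q of at least 5, percentiles of both marks were places among the peaks kept, not in the whole list. With a window of 2000 bp, 2 genes had H3K4me1 in 4 or more mice. H3K27me3 was found at 0 genes with −log10 q of at least 5 and at 0 to 1 with 1 mouse left out, the 0 without mouse 5.

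For fold enrichment limma called 0 genes under every setting run, except for the H3K27ac interaction. The numbers of genes called by width varied more. For H3K4me3 width by diet they were 1 when centred, 16 with −log10 q of at least 5, 2 in the additive model and 0 to 2072 with 1 mouse left out (0 without mouse 4 or 10, 2072 without mouse 8). For H3K4me3 width by temperature they were 2 with summits and 0 to 494, the highest without mouse 8, and for its interaction 0 when centred, 0 with summits and 0 to 186, the highest without mouse 8. For H3K27ac width by temperature they were 0 with normal scores, 2 with summits, 1 with −log10 q of at least 5 and 0 to 53, the 53 without mouse 7, by diet 2 with summits, 2 with −log10 q of at least 5, 1 in the additive model and 0 to 11, the 11 without mouse 8, and for its interaction 0 to 1, the 1 without mouse 7 or 8. The H3K27ac fold enrichment interaction gave 0 to 11, the 11 without mouse 8. Without mouse 7, 34 complex I genes could be fitted for H3K27ac, and 0 were called. The causes were not tested. Lists of equal length were not made for H3K4me1 and H3K27me3. No paired analysis was possible because the conditions compared hold different mice and share no mouse number. With 2 mice in each condition and lists of unequal length, differences of single genes were poorly resolved.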

Other observations

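Complex I also has subunits encoded in the mitochondrial genome, which carries no histones. Of the 7 genes annotated there (mt-Nd1, mt-Nd2, mt-Nd3, mt-Nd4, mt-Nd4l, mt-Nd5 and mt-Nd6), 5 or 6 lay under an H3K4me3 peak in each HFD mouse, and none in any NCD mouse. For H3K27me3 it was 5 genes in each HFD mouse and none in any NCD mouse. For H3K27ac it was 5 or 6 in the HFD mice and 5 in the cold NCD mouse 4, and for H3K4me1 it was 5 or 6 in the HFD mice, 5 in mouse 4 and 1, mt-Nd2, in mouse 5. In H3K27ac, mouse 5 had 1 mitochondrial peak, which covered none of these genes. mt-Nd3 was under a peak in no library, and the warm NCD mice had no mitochondrial peak in any mark. The peaks were called against input, and the inputs themselves were not analysed here.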
